A study of Gossypium hirsutum with 2 samples.

Results

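The genes described here were the 6 genes of upland cotton (Gossypium hirsutum) whose best protein hit carried the name indeterminate-domain and whose promoter had a peak in DNA affinity purification sequencing with GhD53. They were chosen from the longer of 2 promoter peak lists by that name, and they made up 6 of its 2111 genes and 6 of its 2183 peaks. GhD53 was expressed in vitro with an affinity tag and mixed with a library of naked genomic DNA from cotton fiber, the seed hair that is spun. There was 1 purified library (IP) and 1 input library, with no treatment, genotype or replicate, so no difference has a replicate check. No purification made without GhD53 was among the libraries used here, so enrichment by GhD53 and enrichment by other parts of the procedure cannot be told apart. Both lists compare the same purified library with the same input. A peak was needed for a gene to be chosen, so having a peak is not a result about these genes.

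D53 proteins repress strigolactone signalling. When the hormone is perceived by its receptor, the repressor is degraded and the genes it held back are released. Indeterminate-domain proteins are plant C2H2 zinc finger transcription factors named after maize INDETERMINATE1, a regulator of the change to flowering. In Arabidopsis, members of the family bind DNA together with GRAS proteins such as SHORT-ROOT, SCARECROW and the gibberellin-signalling DELLA repressors, and others act in shoot gravitropism and organ shape. The numbers in the names below are those of the best protein hit. Whether a cotton gene is the counterpart of the Arabidopsis gene of that number was not analysed here.

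The 6 genes lay on 6 chromosomes, 4 in the D subgenome and 2 in the A subgenome, and each had 1 peak. The deposited family column gave C2H2 for 5 of them. The exception was GH_D05G3819, which also had by far the shortest gene span, 487 bp, against 1754 to 2360 bp for the other genes, and which carried no family entry although its best hit was an indeterminate-domain 14-like protein. All 6 peaks were annotated by the authors to the promoter of the gene itself, as were 97.8% of all longer-list peaks. Positions are those of the deposited lists. No label or header names the genome build, and no sequence is printed.

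GH_D03G0158 (indeterminate-domain 2-like) carried one of the strongest promoter peaks of the study. In Arabidopsis, the gene of this number is also called GAI-ASSOCIATED FACTOR 1 and binds DELLA proteins. The cotton gene spans D03:1162192-1164259 on the minus strand. Its peak covered D03:1164938-1165192, 255 bp, with the summit at 1165043, which is 784 bp upstream of the start site. The pileup, the number of fragments over the summit, was 108 in the purified library against a background of 4.08. Counting error alone gives this pileup an exact Poisson 95% interval of 88.6 to 130.4. Fold enrichment, which is (pileup + 1) / (background + 1), was 21.5, or 17.6 to 25.9 over that interval with the background held fixed. The −log10 q-value was 105.8. By fold the peak ranked 4 of 2183, and by −log10 q it ranked 12.

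The other 5 genes had low peaks. Their backgrounds were all at 0.608, the lowest value in the longer list, where 84.5% of its peaks stood. With this shared background, fold at these 5 genes follows from the pileup alone. The 0.608 is not read here as a separate input level at each promoter. GH_D05G3819, on the minus strand at D05:59313318-59313804, had the next highest pileup, 9 fragments (exact Poisson 95% interval 4.12 to 17.1), with 6.22-fold enrichment and a −log10 q of 5.25. Indeterminate-domain 14 of Arabidopsis acts with its closest relatives in auxin transport and organ shape. The cotton peak covered D05:59315273-59315559, 287 bp, with the summit at 1617 bp upstream.

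GH_A08G0705 and GH_D08G0698 shared the description indeterminate-domain 12-like and lay on same-numbered chromosomes of the A and D subgenomes. GH_A08G0705, on the minus strand at A08:10544463-10546805, had a pileup of 7 (2.81 to 14.4), 4.98-fold enrichment and a −log10 q of 3.17. Its peak was A08:10548544-10549162. GH_D08G0698, on the minus strand at D08:8884397-8886756, had a pileup of 6 (2.20 to 13.1), 4.35-fold enrichment and a −log10 q of 2.27, with its peak at D08:8888121-8888298. The intervals of both copies overlapped over most of their range, so 7 and 6 fragments are not distinguishable at this depth.

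GH_D07G1264 (indeterminate-domain 9-like) and GH_A09G1891 (indeterminate-domain 16-like) had the lowest values. In Arabidopsis, number 9 is BALDIBIS, a factor of the root ground tissue, and number 16 belongs to the same group as number 14. GH_D07G1264, on the plus strand at D07:16924008-16925761, had a pileup of 5 (1.62 to 11.7) at D07:16923208-16923458, with 3.73-fold enrichment and a −log10 q of 1.51. GH_A09G1891, on the plus strand at A09:75860517-75862590, had a pileup of 4 (1.09 to 10.2) at A09:75859841-75859980, with 3.11-fold enrichment and a −log10 q of 0.917. That is the lowest pileup and the lowest −log10 q found in the longer list, corresponding to a q-value of 0.121. It was shared by 422 peaks of equal pileup and background. Peaks that missed the list were not seen, so no value just outside it can be given.

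**Figure D1:**
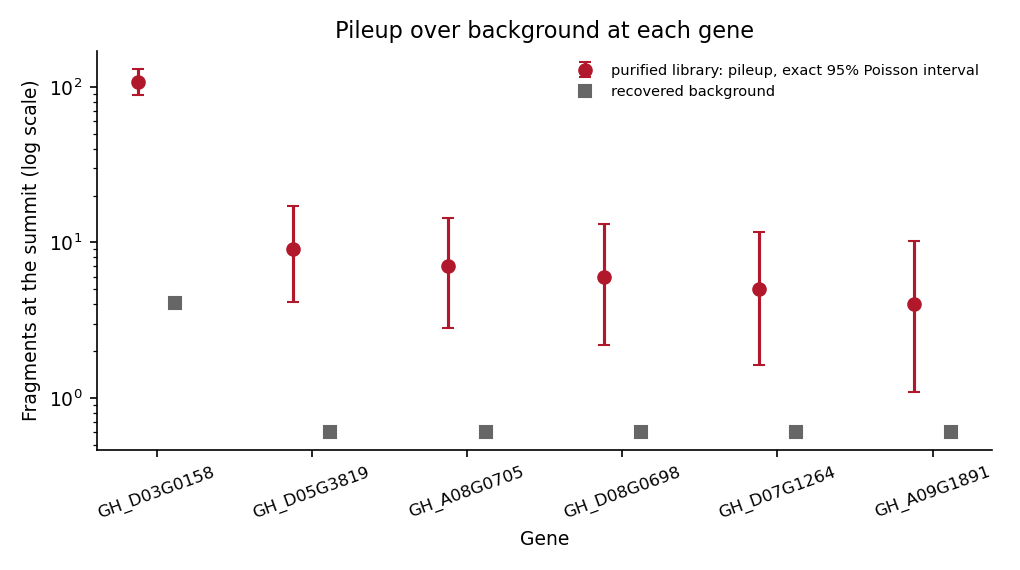
Fragments at the summit (log scale) for each of the 6 genes: circles are the pileup in the purified library with its exact 95% Poisson interval, squares the recovered background. GH_D03G0158 stands at 108 over 4.08, and the intervals of the other 5 genes, at pileups of 4 to 9 over 0.608, all overlap each other.

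Placed in order of pileup, GH_D03G0158 was separated from the next gene by more than counting error, since its interval began at 88.6 and that of GH_D05G3819 ended at 17.1. No neighbours among the remaining 5 could be separated. GH_D03G0158 alone provided 77.7% of the 139 fragments summed over the 6 summits. The median fold of the 6 peaks was 4.66, and 4.35 without GH_D03G0158, against 3.73 over all 2183 peaks.

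Among peaks of high pileup, that of GH_D03G0158 was uncommon in having a modest background. Over all 2183 peaks its background of 4.08 was high, since only 105 peaks, its own included, stood at or above it. In the longer list 95 peaks had a pileup of 50 or more, with a median fold of 3.29 and a median background of 40.3 (range 3.57 to 174.0). Of these, 63 had a pileup above 108, but only 1 had a lower background than GH_D03G0158 and only 2 a higher fold. The peak most like it, by distance over log2 pileup and log2 background, was that of GH_A08G2618. This gene, described as a mitochondrial-like WHY2 single-stranded DNA-binding protein, had a pileup of 111 over 3.57, at a distance of 0.20 on the log2 scale. Next came GH_A01G1753, with a plastid-type ATP synthase alpha subunit as best hit (64 over 7.39, distance 1.14). After it came GH_A09G1191, with a 30S ribosomal protein S3 as best hit (78 over 9.46, distance 1.30). Likeness here rests on 2 values of 1 comparison.

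**Figure D2:**
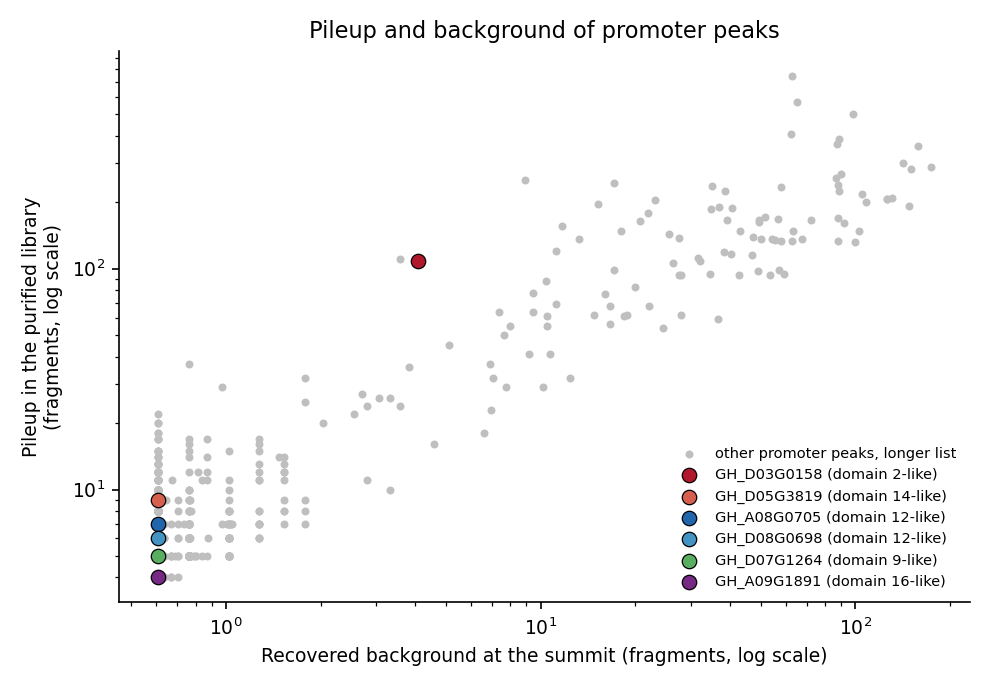
Pileup in the purified library against the recovered background at the summit (both in fragments, log scales) for the 2183 longer-list promoter peaks, with the 6 indeterminate-domain genes in colour. GH_D03G0158 lies at 108 over 4.08, beside a single grey point (GH_A08G2618, 111 over 3.57), while the other 5 genes stack on the lowest background of 0.608.

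At the low end, equal values were common. The pileup and background of GH_D05G3819 were shared by 33 peaks including its own, those of GH_A08G0705 by 158, those of GH_D08G0698 by 398 and those of GH_D07G1264 by 690. Fold therefore placed these genes only in broad steps, at ranks 117, 264, 451 and 902, and GH_A09G1891 at rank 1687. Of the 6 genes 5 had a q-value of at most 0.05, against 79.0% of all peaks. GH_D03G0158 and GH_D05G3819, that is 2 of 6, had a q-value of at most 1e-05, against 10.4% of all peaks. Neither count was tested, because 1 library per fraction gives no spread between samples.

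In the shorter list 5 of the 6 genes were found again, all but GH_A09G1891, against 34.3% of all longer-list genes. At all 5 the summit, pileup, fold and q-value were identical in both lists, and the peak of the shorter list was nested in that of the longer. The presence of a gene in both lists is thus not a second measurement. It followed pileup over all peaks on the lowest background: all 33 peaks with a pileup of 9 were in both lists, 79.1% with 7, 39.7% with 6, 13.5% with 5 and 0 of 422 with 4. For GH_A09G1891, absence from the shorter list was therefore shared by every peak of its value. GH_D07G1264 was among the 93 of 690 peaks of its value that were in both.

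The 6 peaks were 140 to 619 bp long in the longer list. GH_A08G0705 had a peak of 619 bp, the 26th longest of the 2183, although its pileup was 7. Among the 158 peaks of equal pileup and background it was the second longest, and their median was 194.5 bp. The peak of its D copy GH_D08G0698 was 178 bp, close to the median of 175 bp in its own class. GH_D07G1264, at 251 bp, ranked 67 of 690 in a class with a median of 162 bp, and GH_A09G1891, at 140 bp, was below its class median of 151 bp. In the class of GH_D07G1264 the 93 peaks in both lists had a median of 195 bp and the others 158 bp. Of the 6 genes 5 had a peak longer than 174 bp, the median of all peaks.

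**Figure D3:**
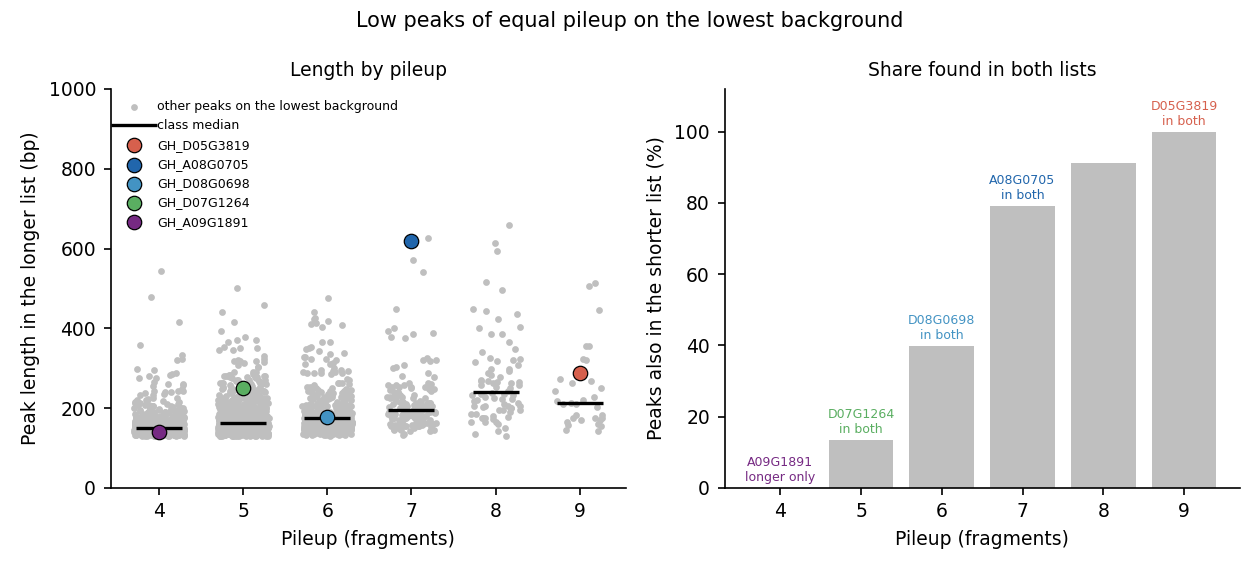
Left, peak length in the longer list (bp) by pileup (fragments) for peaks on the lowest background, with class medians as black lines and 5 indeterminate-domain genes in colour; right, the percentage of peaks of each pileup also in the shorter list. GH_A08G0705 lies at 619 bp over a class median of 194.5 bp, and the share in both lists runs between 0 of 422 peaks at a pileup of 4 and 33 of 33 at 9.

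The shorter list trimmed the peaks by unequal amounts. GH_D07G1264 lost the most, measuring 251 bp in the longer and 171 bp in the shorter list (ratio 1.47). In the longer and the shorter list, GH_A08G0705 measured 619 and 568 bp, GH_D05G3819 measured 287 and 241 bp, GH_D03G0158 measured 255 and 239 bp, and GH_D08G0698 measured 178 and 165 bp. The order of the 5 lengths, with GH_A08G0705 longest and GH_D08G0698 shortest, was the same in both lists.

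None of the peaks lay within 500 bp of a start site, where 13.3% of all longer-list peaks were centred. By the deposited distance of the peak centre, 3 genes had their peak at 500 to 1000 bp upstream, where 24.4% of all peaks lay: GH_A09G1891 at 607 bp, GH_D07G1264 at 675 bp and GH_D03G0158 at 805 bp. GH_D08G0698 followed at 1453 bp and GH_D05G3819 at 1611 bp. GH_A08G0705 was centred at 2047 bp, one of 32 peaks (1.47%) beyond 2000 bp, but its summit lay at 1912 bp. No order linked strength and distance over these 6 genes, the strongest and the weakest peak both lying at 500 to 1000 bp.

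**Figure D4:**
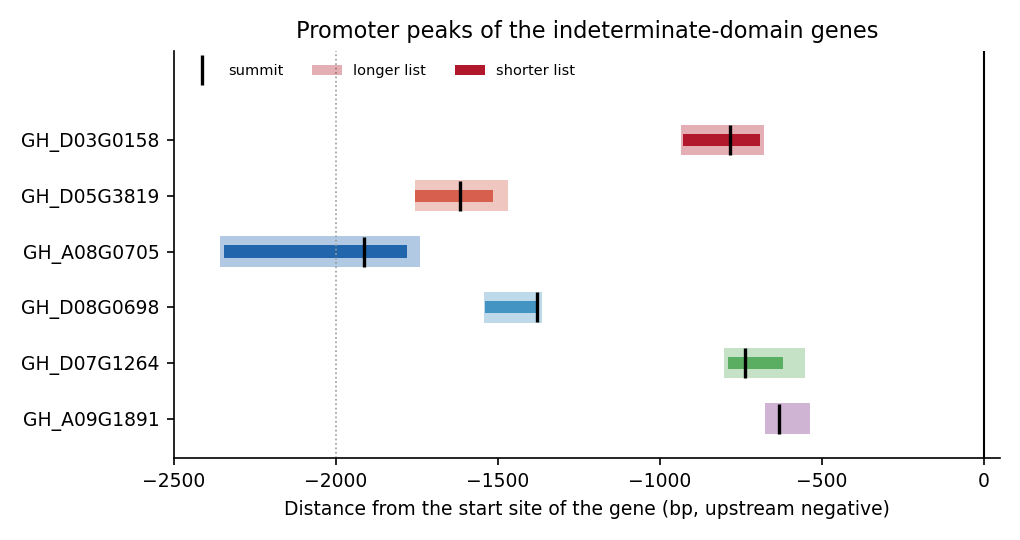
Position of each promoter peak relative to the start site of its gene (bp, upstream negative): pale bars are longer-list peaks, dark bars shorter-list peaks, black ticks summits, and the dotted line marks 2000 bp. The peak of GH_A08G0705 spans 1739 to 2357 bp upstream and that of its D copy GH_D08G0698 spans 1365 to 1542 bp, so they do not overlap on this axis.

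The A and D copies on chromosome 8 were the only pair among the 6 genes, so 2 of 6 had a same-named gene with a peak on the partner chromosome, against 2.80% of the 1252 named genes of the longer list. The gene spans were similar, 2343 bp for GH_A08G0705 and 2360 bp for GH_D08G0698. The peaks were at different places in the promoters. Counted from the start site, the summits were 533 bp apart and a gap of 197 bp separated the peaks. Whether the underlying sequences correspond was not analysed here. For GH_D03G0158, GH_D05G3819, GH_D07G1264 and GH_A09G1891 no same-named gene on the partner chromosome had a peak. At this depth the lowest pileup listed was 4 fragments, so a missing copy does not show that its promoter lacked signal.

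Gene neighbours with a peak were sought within 10 gene numbers. Next to GH_D08G0698 lay GH_D08G0699, described as heat stress transcription factor A-7a-like, which had 2 peaks, of 6 and 7 fragments (4.35-fold and 4.98-fold), with summits 26168 and 26965 bp away. Near GH_D03G0158 lay GH_D03G0150, a mitochondrial succinate dehydrogenase flavoprotein subunit of the respiratory chain, with a pileup of 5 (3.73-fold) and its summit 78556 bp away. GH_D03G0158 was thus far taller than the one listed neighbour, 108 against 5 fragments. Near GH_A08G0705, at a distance of 264173 bp, was GH_A08G0696, with a 30S ribosomal protein S11 as best hit. Its peak had a pileup of 144 over a background of 25.5 and 5.48-fold enrichment. GH_D05G3819 and GH_D07G1264 each had 1 neighbour without an informative name, GH_D05G3827 (6 fragments) and GH_D07G1273 (5 fragments), and GH_A09G1891 had none.

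The family appeared once more under another name. GH_D12G1721 was described as SHOOT GRAVITROPISM 5-like; in Arabidopsis, SHOOT GRAVITROPISM 5 is the indeterminate-domain protein 15, which acts in the gravity response of the shoot. Its peak, at D12:48100800-48100965, had a pileup of 8, 5.60-fold enrichment and a −log10 q of 4.17, with the summit 1004 bp upstream, and it was in both lists. Its pileup lay between those of GH_D05G3819 (9) and GH_A08G0705 (7). With it, 3 of the genes with a peak belonged by name to the 14, 15 and 16 group, which in Arabidopsis is linked to gravitropism and auxin, and their pileups were 9, 8 and 4 fragments.

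Among the 10 genes of the longer list with the family entry C2H2, 6 were indeterminate-domain genes, GH_D12G1721 included. The 4 others were GH_A12G2372 (ZAT9-like), with a pileup of 8 and 5.60-fold enrichment, GH_D12G0195 (ZAT10-like, a stress-responsive repressor in Arabidopsis), with 5 and 3.73-fold, and GH_A03G1763 (no informative name) and GH_A13G0201 (RABBIT EARS, a petal development factor in Arabidopsis), each with 4 and 3.11-fold. Of these 4, 1 was in both lists, against the same 34.3% of all genes, and their median fold was 3.42. All 4 stood on the lowest background, as did 5 of the 6 indeterminate-domain genes. How many C2H2 genes of each kind the cotton genome holds was not analysed here, so the 6 of 10 is a count and not an enrichment.

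Genes matched as GRAS or TOPLESS-type had peaks of 5 to 7 fragments, against a median of 5 over all longer-list peaks. Whether these proteins work with indeterminate-domain proteins in cotton was not analysed here. GRAS proteins had 4 genes with a peak, of which 2 were in both lists, against 34.3% of all longer-list genes. These were GH_D05G2781 (scarecrow-like 21), with a pileup of 7 and 4.98-fold enrichment, and GH_D10G2550 (scarecrow-like 9), with 7 and 4.53-fold. GH_D12G1428, without an informative name, had 6 and 4.35-fold, and GH_A08G2298 (nodulation-signaling pathway 2-like) had 5 and 3.73-fold. None of the 4 was named for a DELLA protein, SHORT-ROOT or SCARECROW itself. The only TOPLESS-type corepressor gene, GH_A08G2546, had a pileup of 7 and 4.98-fold enrichment in both lists. TOPLESS proteins are corepressors with which D53 proteins act.

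The gibberellin list held GH_D06G0024 alone, a gibberellin-regulated 11-like gene, with a pileup of 4 and 3.11-fold enrichment. No gene of gibberellin synthesis or perception was matched by name. The strigolactone list, made by words in the annotation, held GH_A02G1790 (probable esterase D14L) and GH_A05G0420 (a cytochrome P450 of the MAX1 type, which makes strigolactones). Both had the same pileup and fold as GH_D06G0024. GH_A02G1790 entered because the name D14L contains D14, and whether it acts in strigolactone signalling was not analysed here. No starch or sucrose synthesis gene was matched. All 3 matched genes were in the longer list alone, and they shared their value with GH_A09G1891.

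Deposited gene ontology terms were given for 3 of the 6 genes. GH_A08G0705 and GH_D08G0698 had 22 terms each, of which only transcription factor activity and regulation of transcription are named here. GH_D03G0158 had 68, of which only a few are named here: seed maturation, regulation of seed germination and regulation of the gibberellic acid mediated signalling pathway. That last term was carried by 2 genes of the longer list, out of 915 with any term. The other was GH_D09G0181, a DExH18-like RNA helicase, with a pileup of 5 and 3.73-fold enrichment. How many genes carried the seed terms or the unnamed terms was not counted here. All these terms describe annotation, not an effect of GhD53 on these genes.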

How the data were processed

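The data were 2 deposited lists of promoter peaks of the IP library against the input library. BWA, ChIPseeker and deepTools 2.5.4 are named in the submitters' processing notes. For the peak caller, genome build, filters on reads and thresholds no name or value is given in the sources used here. Per the file headers, the authors deposited a pileup (a signal, in fragments at the summit), a fold enrichment (a ratio), a −log10 p-value and a −log10 q-value for each peak, with gene, best protein hit and transcription factor family. The lowest pileup was 4 fragments in the longer and 5 in the shorter list, and library totals were not used here.

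Genes were chosen where the best hit contained indeterminate-domain. Members and lists were chosen with earlier results of these data known. Background was computed as (pileup + 1) / fold − 1. A Poisson tail on it gave the deposited −log10 p of the 6 peaks to within 9.2e-06. Lists shared a peak at an overlap of 1 bp. Poisson 95% intervals cover counting error only. Beside the 6 genes, the rule named all genes of the short related lists, up to 4 other C2H2 genes, neighbours within 10 gene numbers and the 3 most like peaks. GH_D09G0181 was outside this rule and was chosen after its values were seen. A copy was a gene of identical description on the same-numbered chromosome of the other subgenome. Best hits of 5 of the 6 genes, versions ignored, were found in the RefSeq gene table, and 0 of the 6 gene identifiers. Python 3.11.15, pandas 2.3.3 and scipy 1.17.1 were used, and the overlap and background steps were tested on simulated data. No test between groups was made, since each had 1 library. Alternatives were other name rules, q-value limits, overlap rules, list, pseudocount, rank measure, summit in place of centre and copy rule. The planned motif search was not run.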

Additional observations from a re-analysis of the deposited data

How the results depend on the processing

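With 1 library per fraction, depth limits every low peak: pileups of 4 to 9 fragments had overlapping intervals. Of the 36 values recomputed under alternatives, 27 stayed within 1.5 times for counts, ranks and backgrounds, within the counting error of the pileup for folds, or within the same 500 bp bin for distances. GH_A09G1891 gave no shorter-list value. The other 9 moved. A q-value of 1e-05 or lower left 2 of the 6 genes, because the other 4 had higher q-values. Ranked by −log10 q in place of fold, GH_D03G0158 stood at 12 in place of 4 and GH_D05G3819 at 192 in place of 117. Measured at the summit in place of the centre, the peak of GH_A08G0705 lay at −1912 bp in place of −2047 bp, since its summit is off centre. With the other family names the count of genes was 7 in place of 6, which is within 1.5 times and not among the 9 that moved. An added search, chosen after seeing the data, also paired chromosomes 2 with 3 and 4 with 5 across subgenomes, as the A subgenome carries translocations between them. It left 2 genes with a copy. Without the pseudocount, the background was 5.03 in place of 4.08 under GH_D03G0158, within 1.5 times. In place of 0.608 it was 1.45 under GH_D05G3819, 1.41 under GH_A08G0705, 1.38 under GH_D08G0698, 1.34 under GH_D07G1264 and 1.29 under GH_A09G1891. The backgrounds of these low peaks thus moved with this choice. Those with the pseudocount are the ones that gave the deposited −log10 p of the 6 peaks to within 9.2e-06. No paired analysis was possible because each fraction had 1 library.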
